A study of Lemna gibba and Lemna japonica and Spirodela polyrhiza with 12 samples.

Results

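Two-strand 21 nt loci are stretches of the genome where small RNA reads pile up on both strands and are mostly 21 nt long. In the locus lists of 4 duckweeds, 6554 of 79572 loci were of this kind: 1498 of 10022 in Lg7742a, 3441 of 26073 in Lj8627, 880 of 6315 in Sp9509 and 735 of 37162 in Wa8730. A locus was taken when its dominant read size was 21 nt, it was assigned to neither strand, it was not listed as a microRNA hairpin, and it lay on a numbered chromosome. The loci were thus selected on measured values, the size call and the strand, and are described here and not tested. The share of reads per strand and per size is not listed for a locus, so values just inside and just outside both limits cannot be given.

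The accessions are small floating plants of the family Lemnaceae: Lemna gibba (Lg7742a), Lemna japonica (Lj8627), Spirodela polyrhiza (Sp9509) and Wolffia australiana (Wa8730). Each accession was grown as a sterile culture in SH medium with sucrose and a long photoperiod, with no treatment, and whole fronds of 3 biological replicates were sequenced. Lemna japonica is known as a hybrid, and the Lj8627 assembly holds 21 chromosomes whose names end in M and 21 whose names end in T. The lists pool the 3 replicates of an accession, so each value is 1 number per accession, replicate spread is unknown, and differences between accessions were not tested. Whole fronds mix cell types, so fewer producing cells and fewer RNAs per cell cannot be told apart.

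Plant 21 nt small RNAs are cut by Dicer-like enzymes. MicroRNAs come from an arm of a hairpin and so from a single strand. Reads from both strands can come from a long double-stranded RNA. Such an RNA can be made by an RNA-dependent RNA polymerase copying a transcript or by pairing of an inverted repeat. In Arabidopsis, RDR6 and DCL4 work in the first route and give phased small interfering RNAs, the trans-acting ones among them, which guide the cutting of transcripts. Phasing and transcripts were not examined here, so no locus was placed in either route, and other origins were not tested. The strand call also rests on few reads at many loci. At most 4 reads lay in 376 of 1498 loci of Lg7742a and in 819 of 3441 of Lj8627. No sequence is shown because no genome of these assemblies was used.

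The lists held 7197515 reads in Sp9509, 5649845 in Wa8730, 5394332 in Lj8627 and 5005362 in Lg7742a. These totals include loci in microRNA hairpins, on unplaced scaffolds and in organelles. The shallowest two-strand 21 nt loci had 3 reads in both Lemna accessions, 4 in Wa8730 and 5 in Sp9509. Numbers of loci therefore carry differences in depth and in that lower limit. Intervals are 95% intervals of counting error only, since the reads carry no molecular identifiers and loci of a genome are not replicates.

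Among 21 nt loci outside hairpins, the two-strand kind made up 67.9% in Sp9509 (880 of 1296, Wilson interval 65.3 to 70.4). It was 59.6% in Lj8627 (3441 of 5772, 58.3 to 60.9), 52.7% in Wa8730 (735 of 1396, 50.0 to 55.3) and 51.0% in Lg7742a (1498 of 2938, 49.2 to 52.8). In Sp9509 these loci held 51.8% of the reads in 21 nt loci outside hairpins, in Wa8730 34.5%, in Lg7742a 24.9% and in Lj8627 16.9%. One locus on chr6 carried the value of Sp9509, which was 28.7% without it. Single-strand 21 nt loci thus held more of the reads than two-strand ones in Lg7742a, Lj8627 and Wa8730, and in Sp9509 too once that locus was left out. The leading single-strand locus of Sp9509, with 21.1% of the single-strand reads, was kept in that last comparison. Of all reads in loci, two-strand 21 nt loci held 4.98% in Sp9509, 2.21% in Lg7742a, 1.38% in Lj8627 and 1.07% in Wa8730.

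The two-strand kind was less frequent among the deepest 21 nt loci. In Lg7742a it fell from 54.7% of loci with 5 to 9 reads to 38.0% at 100 to 999 reads and 31.7% at 1000 or more (20 of 63 loci). In Lj8627 the values were 63.1%, 37.3% and 14.7% (5 of 34 loci). Sp9509 stood at 40.5% for 5 to 9 reads, 75.3% for 30 to 99 and 41.7% for 1000 or more (20 of 48 loci), so its share was highest in the middle. Wa8730 changed least, between 48.1% and 57.8% from 5 to 999 reads, with 28.6% of 21 loci above that. Loci of 22 nt took another course in Lg7742a, where the two-strand share rose from 55.0% at 5 to 9 reads to 89.6% at 100 to 999, before it stood at 60.0% of the 15 loci with 1000 or more. In the other accessions 22 nt loci also fell with depth. From 30 to 99 reads to 1000 or more, their share went from 71.2% to 50% (of 28 loci) in Lj8627 and from 70.3% to 20% (of 30) in Sp9509. In Wa8730 it went from 80.5% at 10 to 29 reads to 33.3% of 12 loci. The fall was thus not particular to 21 nt loci. The sources used here do not give the strand threshold, and its part in the lowest groups was not tested.

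**Figure D1:**
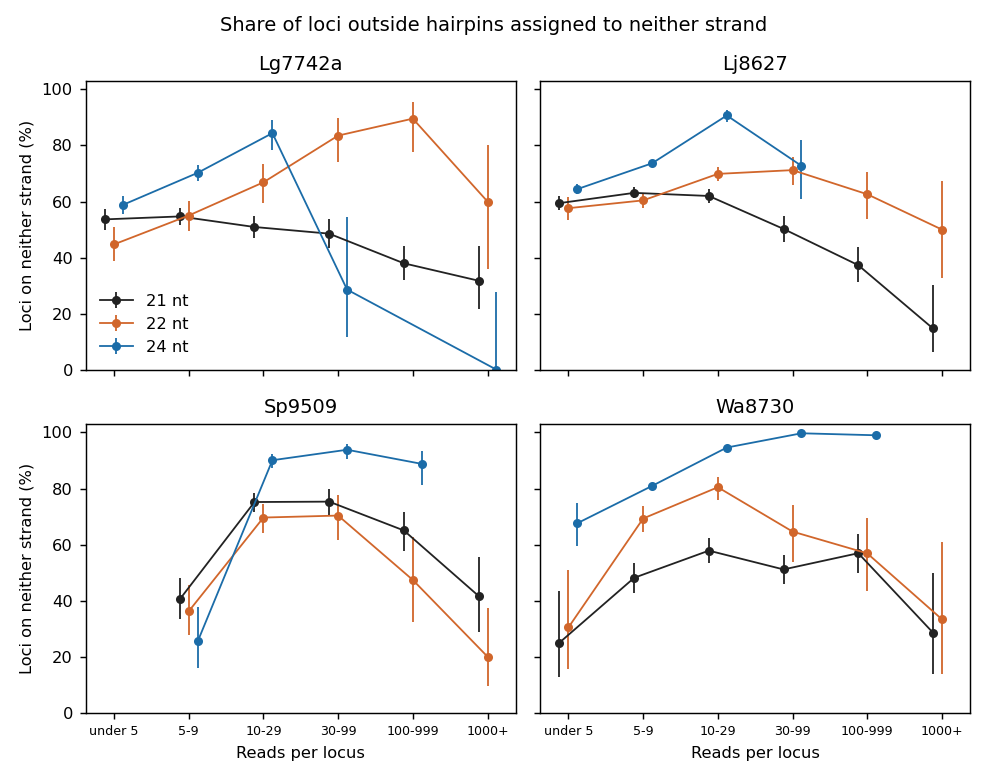
Share of loci outside hairpins assigned to neither strand (%), by reads per locus, for 21, 22 and 24 nt loci in the 4 accessions. Points are shares, bars their 95% Wilson intervals, and groups under 10 loci are not drawn. In both Lemna accessions the 21 nt points fall from 10 reads upward, to 31.7% in Lg7742a and 14.7% in Lj8627.

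Reads were concentrated to very different degrees. In Sp9509, 1 locus on chr6, from 4929309 to 4931137, held 224040 of the 358605 reads, or 62.5%. This locus was 1829 bp long, which comes to 122493 reads per kb, and no other locus was listed within 10 kb of it. The nearest one lay 34955 bp away with 16 reads. The second locus of Sp9509, also on chr6 from 1886858 to 1888050, held 22376 reads, and it too had no listed neighbour within 10 kb. Without the first locus, but with its reads kept in the total, two-strand 21 nt loci held 1.87% of the reads of Sp9509 instead of 4.98%. The same step gave 1.96% in Lg7742a, 1.30% in Lj8627 and 1.01% in Wa8730, so the lead of Sp9509 over Lg7742a rested on that locus.

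The other accessions had no single locus of such weight. In Lg7742a the 5 leading loci held 12364 reads on chr21 from 5586672 to 5587808, 10566 on chr7 from 9432889 to 9434003, 6488 on chr2 from 26463926 to 26465533, 6113 on chr9 from 16898858 to 16901675 and 5007 on chr19 from 8660493 to 8661488. They were 996 to 2818 bp long. The 10 leading loci of Lg7742a held 46.3% of the reads, and 50% of the reads lay in 13 of 1498 loci. In Wa8730 the 10 leading loci held 25.7% and 50% of the reads lay in 32 of 735 loci. In Lj8627 the leading 10 held 20.0%, and 50% of the reads were spread over 97 of 3441 loci. The order of these last accessions turned when loci were counted as a share: 50% of the reads lay in 4.35% of the loci of Wa8730 and 2.82% of those of Lj8627, and the leading 1% of loci held 22.5% and 36.5%. The Gini coefficient, which is 0 for equal reads and near 1 when 1 locus holds all, was 0.933 in Sp9509, 0.879 in Lg7742a, 0.741 in Wa8730 and 0.705 in Lj8627.

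The leading loci of Wa8730 were 3422 reads on chr15 from 13482161 to 13482812 and 3416 reads on chr18 from 3518940 to 3520367. Below them came 1349 reads on chr15 from 6373051 to 6374381, 1281 on chr16 from 9287877 to 9289448 and 1205 on chr7 from 908309 to 908857. The first was 652 bp long and the second 1428 bp, so close read counts came with lengths that differed more than 2 times. In Sp9509 the third to the fifth held 7679 reads on chr15 from 1879751 to 1882689, 5424 on chr12 from 4853998 to 4855936 and 4565 on chr2 from 3220306 to 3225809. In the 21 nt loci of a single strand, the 10 leading loci held 80.1% of the reads in Sp9509, 68.5% in Lj8627, 61.8% in Wa8730 and 58.6% in Lg7742a. The two-strand shares were lower, at 20.0% in Lj8627, 25.7% in Wa8730 and 46.3% in Lg7742a, from similar or larger numbers of loci. In Sp9509 the two-strand share was 78.9%, but its first locus alone held 62.5%, against 21.1% for the first single-strand locus, and the kinds differ in number, 880 against 416 loci.

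**Figure D2:**
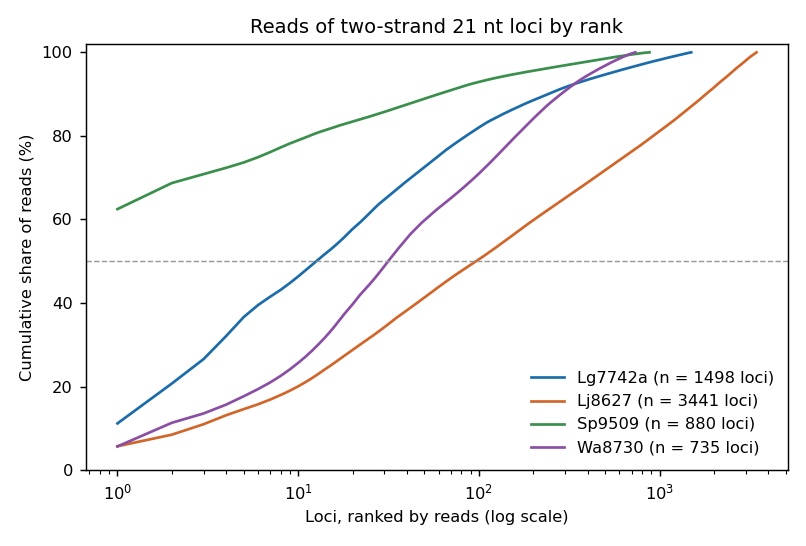
Cumulative share of reads (%) against two-strand 21 nt loci ranked by reads (log scale), 1 line per accession; the dashed line marks 50%. The line of Sp9509 starts at 62.5% with its first locus, while Lj8627 crosses 50% at 97 loci.

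A typical locus was shallow in both Lemna accessions. The median was 7 reads in Lg7742a and 7 in Lj8627, against 25 in Sp9509 and 20 in Wa8730. The middle 50% of loci ran from 4 to 18 reads in Lg7742a, 5 to 12 in Lj8627, 15 to 53 in Sp9509 and 10 to 63 in Wa8730. Loci with at least 10 reads numbered 1121 in Lj8627 (32.6%), 810 in Sp9509 (92.0%), 573 in Wa8730 (78.0%) and 614 in Lg7742a (41.0%). At 100 reads or more the numbers were 93, 139, 113 and 113 in the same order. Lj8627, which had the most loci of all, thus had the fewest deep ones. At 1000 reads or more there were 20 each in Lg7742a and Sp9509, 6 in Wa8730 and 5 in Lj8627.

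Length followed reads. The shortest two-strand 21 nt locus was 401 bp in each accession, and many loci lay just above that limit: 70.5% were at most 430 bp in Lj8627, 63.5% in Lg7742a, 47.0% in Sp9509 and 43.3% in Wa8730. The sources used here do not give the margin added around the reads, so lengths near 401 bp are not lengths of a source RNA. Across loci, reads and length had a Spearman correlation of 0.81 in Lg7742a (n = 1498), 0.72 in Lj8627 (n = 3441), 0.84 in Sp9509 (n = 880) and 0.80 in Wa8730 (n = 735). These are descriptions, since the loci share libraries and a locus with more reads can reach further by depth alone.

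Among loci of at least 100 reads, the accessions still differed in length. The median was 1552 bp in Sp9509 (139 loci), 848 bp in Lj8627 (93 loci), 799 bp in Lg7742a (113 loci) and 500 bp in Wa8730 (113 loci). Loci over 600 bp made up 39.8% of these deep loci in Wa8730, 69.9% in Lg7742a and 76.3% in Lj8627, while Sp9509 had 89.2%. The longest of all, in Lg7742a, had 6539 bp and 434 reads, on chr19 from 4813160 to 4819698. In Lj8627 the longest had 5725 bp and 354 reads, on chr3T from 30931 to 36655. The longest of Sp9509 had 5704 bp and 1071 reads, on chr1 from 4582 to 10285, close to the start of that chromosome. Wa8730 reached only 2055 bp, on chr14 from 12971424 to 12973478, with 449 reads. None of the 4 longest loci was among the 5 with most reads of its accession.

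**Figure D3:**
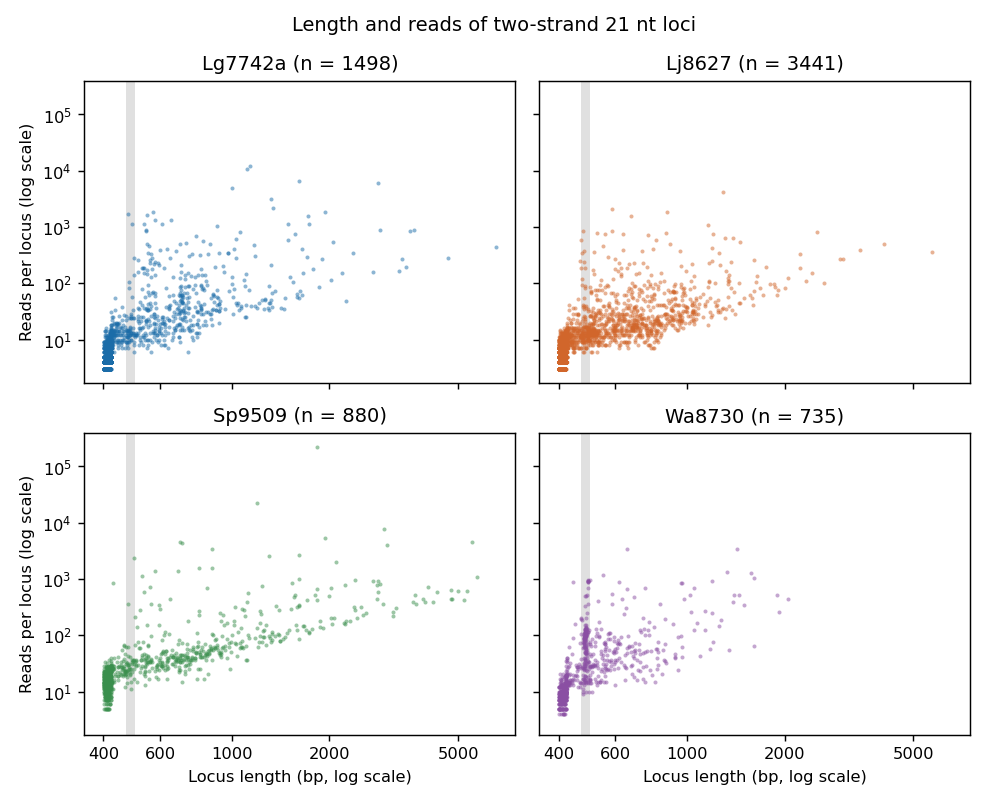
Reads per locus against locus length (bp), both on log scales, for all two-strand 21 nt loci of each accession (1 point per locus). The grey band marks 470 to 500 bp. Points start at 401 bp, Sp9509 has a long tail up to 5704 bp, and in Wa8730 a column of points stands in the band.

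Wa8730 had a length class of its own. Of its 735 loci, 161 (21.9%) were 470 to 500 bp long, and they held 19629 reads, or 32.5% of the reads in two-strand 21 nt loci. The limits of 470 and 500 bp were chosen after the lengths had been seen, so this is a description. Among loci with at least 30 reads the share was 40.5% in Wa8730 (120 of 296), against 2.87% in Lg7742a (8 of 279), 5.90% in Lj8627 (19 of 322) and 5% in Sp9509 (19 of 380). In Wa8730 itself it was 18.8% of single-strand 21 nt loci (51 of 271), 1.16% of two-strand 22 nt loci and 0.312% of two-strand 24 nt loci at the same minimum. The class was thus seen in 21 nt loci of both kinds and was rare in the 22 and 24 nt two-strand loci. With these loci left out, the median length of Wa8730 loci of at least 100 reads was 776.5 bp (58 loci) and 77.6% exceeded 600 bp. The same step gave 820.5 bp and 73.1% in Lg7742a, 916 bp and 82.6% in Lj8627, and 1567 bp and 90.5% in Sp9509. Leaving out loci of 470 to 500 bp raises the share over 600 bp by itself.

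The 161 loci lay on all 20 chromosomes of Wa8730, from 1 each on chr12 and chr18 to 17 on chr3. Their median was 71 reads, with a range of 9 to 959. Lengths peaked within a few bases: 90 of them were 480 to 486 bp long, on 19 chromosomes. Another set was exactly 494 bp long, with 9 loci. Of these, 6 held nearly the same number of reads, 877 to 945, on 4 chromosomes. They lay on chr4 from 625000 to 625493 with 880 reads and from 626353 to 626846 with 907, on chr6 from 5563497 to 5563990 with 945 and from 5577184 to 5577677 with 877, on chr10 from 5073162 to 5073655 with 913, and on chr14 from 5906772 to 5907265 with 943. These loci were chosen after their values were seen. Together they held 5465 reads, and whether the same reads were divided among them or placed by their own sequence was not tested.

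On chr3 of Wa8730 a pair of such loci recurred 3 times. The first pair was a locus of 472 bp with 187 reads, from 656420 to 656891, followed by one of 485 bp with 504 reads, from 658610 to 659094. The next was 471 bp with 207 reads, from 726387 to 726857, and 490 bp with 515 reads, from 728669 to 729158. The last was 471 bp with 197 reads, from 798350 to 798820, and 482 bp with 504 reads, from 800682 to 801163. Each pair thus held a shallower locus followed by a deeper one, their starts 2190, 2282 and 2332 bp apart, and the pairs followed each other at 70.0 and 72.0 kb. These pairs were chosen after their values were seen. In all, 14 pairs of neighbouring loci of 470 to 500 bp lay under 3 kb apart, on 9 chromosomes.

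Loci that matched each other in both length and reads were common in Wa8730. Of its 113 loci with at least 100 reads, 48 (42.5%) had a partner within 3 bp of length and 5% of reads, and 44 of the 48 were 470 to 500 bp long. The same limits, chosen after the data were seen, gave 5 of 113 loci in Lg7742a, 2 of 93 in Lj8627 and none of 139 in Sp9509. Of the 107 such pairs in Wa8730, 95 joined different chromosomes. A narrow length class gives some such pairs by itself, and their sequences were not compared.

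**Figure D4:**
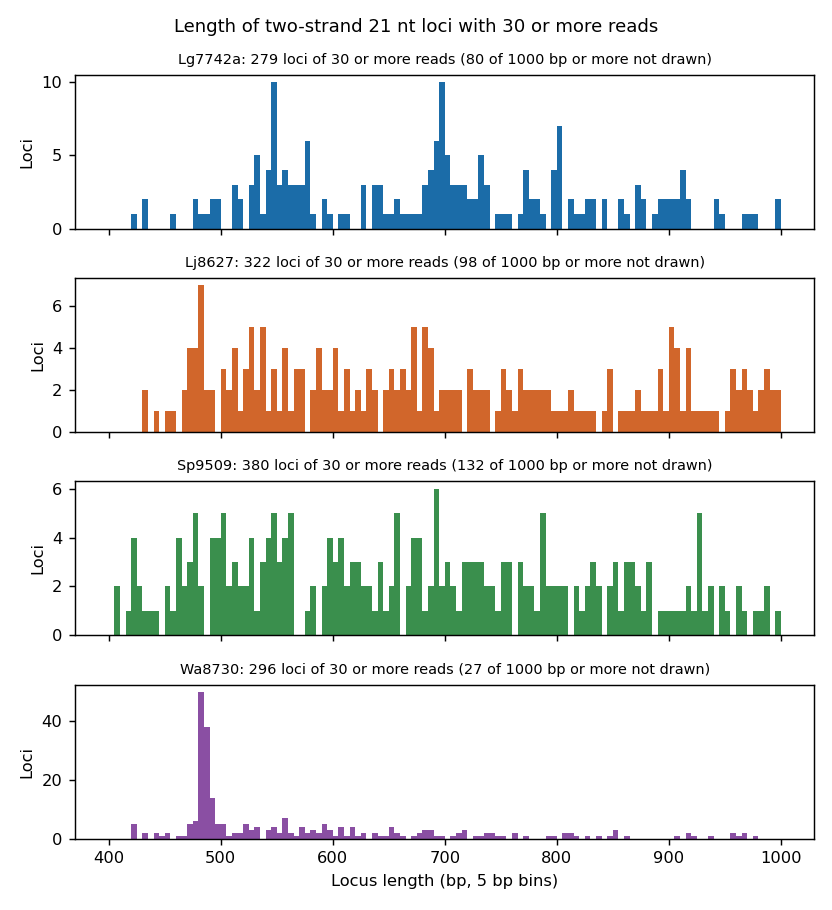
Number of two-strand 21 nt loci with at least 30 reads by length (5 bp bins up to 1000 bp), 1 panel per accession with its own vertical scale. Wa8730 has a narrow peak between 470 and 500 bp that holds 120 of its 296 loci.

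Two-strand 21 nt loci were densest in Sp9509, the accession with the shortest chromosomes. There were 6.37 loci per Mb, compared with 4.58 in Lj8627, 3.09 in Lg7742a and 2.09 in Wa8730, over spans of 138, 752, 485 and 351 Mb up to the last listed locus of each chromosome. At a common minimum of 10 reads the density of Sp9509 was 5.86 per Mb, against 1.63 in Wa8730, 1.49 in Lj8627 and 1.27 in Lg7742a. Sp9509 was thus 3.59 to 4.63 times as dense as the others at that minimum, and the other 3 lay close together. That minimum does not allow for the unequal reads in the lists. At 10 reads scaled to the list with fewest reads, Sp9509 stood at 4.95 per Mb. Wa8730 then stood at 1.45, Lj8627 at 1.33 and Lg7742a at 1.27. The listed lengths summed to 0.110% of the span in Wa8730, 0.169% in Lg7742a, 0.230% in Lj8627 and 0.471% in Sp9509.

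Density also varied between chromosomes of an accession. It ran from 4.14 per Mb on chr18 to 10.8 on chr15 in Sp9509, and from 2.58 on chr3 to 4.06 on chr11 in Lg7742a. In Wa8730 the range was 1.52 on chr9 to 2.64 on chr14. In Lj8627 it was 2.53 on chr17T to 8.98 on chr19M. Per 1 Mb window, the variance over mean was 1.38 in Lg7742a, 1.47 in Wa8730, 2.05 in Lj8627 and 2.12 in Sp9509, where random placement gives a value near 1. Within Lj8627 it was 1.85 on M and 1.68 on T chromosomes. Windows without any such locus made up 19.9% in Wa8730, 9.07% in Lg7742a and 4.14% in Lj8627, and Sp9509 had the fewest at 1.37%.

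The fullest window was the second Mb of chr15 in Sp9509, with 23 loci and 19275 reads. That was 5.37% of the reads of all two-strand 21 nt loci there, or 14.3% with the leading chr6 locus left out. The loci in this window held 12 to 7679 reads with a median of 118, and 12 of the 23 had at least 100 reads. Within it, 12 loci lay between 1871321 and 1988248, no more than 25 kb from one to the next, and held 17828 reads. This group was chosen after its values were seen. It held the locus of 7679 reads named above, one of 4018 reads from 1967359 to 1970368 and one of 2712 reads from 1900348 to 1901962, which are among the 10 loci with most reads in the accession. The fullest windows of the other accessions were shallow. In Lj8627, 17 loci each lay in the fifth Mb of chr11M with 142 reads and in the sixth Mb of chr19M with 177 reads. In Wa8730 the fullest window had 9 loci and 404 reads, in the 16th Mb of chr10, and in Lg7742a 3 windows tied at 10 loci, that of chr18 with 158 reads and that of chr7 with 167 among them.

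Loci of this kind lay near each other most often in Sp9509, where they were also densest. Another two-strand 21 nt locus lay within 10 kb of 48.3% of them in Sp9509, 27.8% in Wa8730, 22.4% in Lj8627 and 19.9% in Lg7742a. For single-strand 21 nt loci the shares were lower, at 23.3%, 16.2%, 12.7% and 16.6% in the same order. For two-strand 22 nt loci they were 21.6%, 13.6%, 26.0% and 19.3%, above the two-strand 21 nt share in Lj8627 only. For two-strand 24 nt loci they were 77.9%, 90.9%, 37.6% and 24.2%. Such shares rise with density, which was not adjusted for. In Sp9509 single-strand 21 nt loci stood at 3.01 per Mb, and in Wa8730 two-strand 24 nt loci at 79.1 per Mb. The longest run with no gap over 10 kb held 11 loci and 713 reads on chr3 of Sp9509, from 6565100 to 6603954. In Lj8627 it held 7 loci and 79 reads on chr16M, from 2639350 to 2660493. In Wa8730 a run of 6 lay on chr4 from 15662573 to 15672830 with 1158 reads, and in Lg7742a a run of 5 on chr7 from 23652614 to 23664703 with 146 reads. Runs of at least 3 loci numbered 67 in Lj8627, 59 in Sp9509, 8 in Wa8730 and 27 in Lg7742a. They held 235 of the 880 loci of Sp9509, against 28 of the 735 of Wa8730.

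The nearest listed locus of any class was more often of the same kind than its number would give. In Wa8730, 24.8% of two-strand 21 nt loci had another as the nearest locus, although the kind made up 1.99% of the loci on its chromosomes. There, two-strand 24 nt loci were nearest in 37.7% of cases and made up 75.3% of loci. In Sp9509 the values for the same kind were 31.3% against 14.2%, in Lg7742a 20.9% against 15.2% and in Lj8627 17.9% against 13.8%. Two-strand 22 nt loci were also nearest more often than their number in each accession, as in Sp9509 at 13.5% against 5.75% and Lj8627 at 15.2% against 9.04%. Single-strand 21 nt loci were so in Wa8730, at 11.7% against 1.79%, but not in Lg7742a, at 14.0% against 14.6%. Whether other classes lie nearest to their own kind in this way was not examined. Within 10 kb of a microRNA hairpin lay 17 two-strand 21 nt loci in Lj8627 (0.494%), 10 in Lg7742a (0.668%), 9 in Wa8730 (1.22%) and 6 in Sp9509 (0.682%). These held at most 376 reads. The share of all loci within that distance was not computed. A hairpin was the nearest locus of 0.816% in Wa8730 and 0.935% in Lg7742a, where hairpins made up 0.314% and 0.823% of loci. In Lj8627 it was 0.494% against 0.549%, and in Sp9509 0.227% against 1.31%.

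Toward chromosome ends the accessions differed. The first 10% and the last 10% of the chromosome spans together held 27.8% of the loci in Lj8627 (26.3 to 29.3) and 25.3% in Sp9509 (22.6 to 28.3), where an even spread gives 20%. Lg7742a was at 21.9% (19.9 to 24.1) and Wa8730 at 21.8% (18.9 to 24.9), and both intervals hold 20%. In Sp9509 the share was 23.1% for single-strand 21 nt and 23.0% for two-strand 22 nt loci, both inside the interval of the two-strand 21 nt loci. For two-strand 24 nt loci of Sp9509 it was lower, at 18.0%, while it was 29.5% in Lg7742a and 26.2% in Wa8730. In Lj8627 two-strand 24 nt loci were at 31.3% and single-strand 21 nt loci at 21.9%, so two-strand 21 nt loci lay between them.

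In Lj8627 the M chromosomes carried more two-strand 21 nt loci, 1974 against 1467 on T, a ratio of 1.35 (1.26 to 1.44). M chromosomes spanned 337 Mb and T chromosomes 415 Mb, so that density differed more, at 5.86 against 3.54 loci per Mb, a ratio of 1.66 (1.55 to 1.77). M had more loci in 18 of 21 chromosome pairs and was denser in 21 of 21. The exceptions in number were chr10, chr13 and chr20, and the ratio per pair ran from 0.714 on chr20 to 2.21 on chr17. Listed loci of all classes together also leaned to M, at 15872 against 9081. Two-strand 21 nt loci made up 12.4% of them on M and 16.2% on T, so they were a smaller part of the loci on M. Both sets come from the same libraries, so depth is shared, while the sources used here do not say where reads matching both sets were placed.

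The lean of two-strand 21 nt loci to M in number came from shallow loci. With fewer than 10 reads M had 1473 and T had 847, a ratio of 1.74 (1.60 to 1.89). From 10 to 99 reads it turned to 441 against 587, or 0.751 (0.664 to 0.850), with more on T in 13 of 21 pairs. Per Mb spanned that middle ratio was 0.925 (0.818 to 1.05), an interval that holds 1. At 100 reads or more it was 60 against 33, or 1.82 (1.19 to 2.77). Taken at 10 reads or more, T had more loci, 620 against 501, and both sets had the same density of 1.49 per Mb. In single-strand 21 nt loci the ratios for the 3 depth ranges were 1.20, 0.806 and 1.81, and the middle one was 0.992 per Mb. Within the middle range they were 0.701 from 10 to 29 reads and 1.08 (0.835 to 1.40) from 30 to 99, whereas two-strand 21 nt loci had 0.756 and 0.735. Two-strand 22 nt loci had 1.17, 0.430 and 0.717 for the 3 ranges, and 0.529 per Mb in the middle. Two-strand 24 nt loci leaned to M with fewer than 10 reads, at 3.70, and from 10 to 99 reads, at 9.53. In number, the middle ratio was thus below 1 for the 21 and 22 nt kinds and above it for 24 nt loci; per Mb, it was clear of 1 only in two-strand 22 nt loci, on the T side, and in two-strand 24 nt loci, on the M side.

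**Figure D5:**
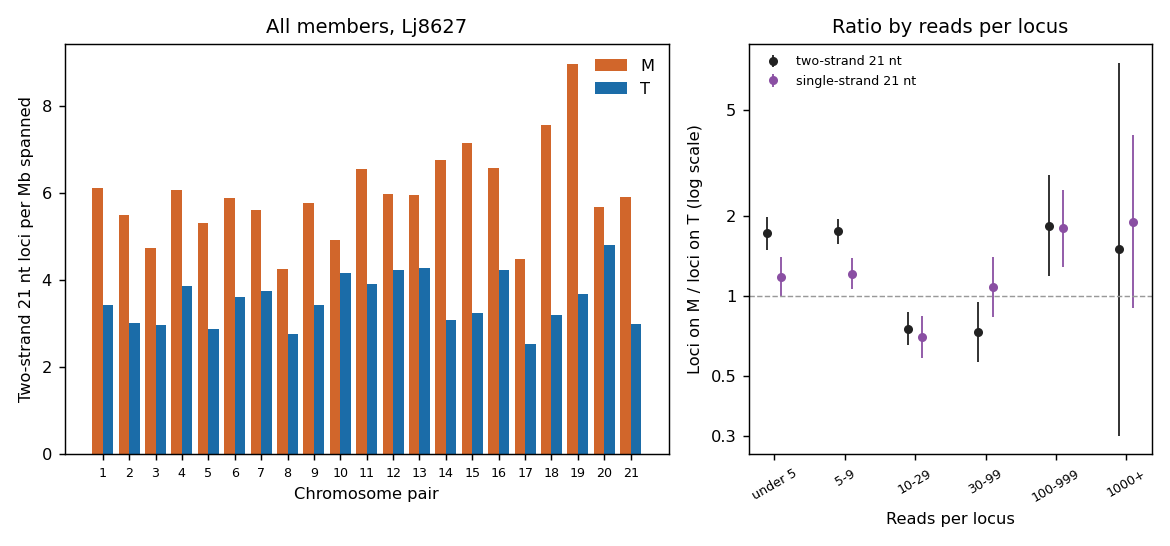
Left, two-strand 21 nt loci per Mb spanned on the M and T chromosome of each of the 21 pairs of Lj8627; right, ratio of loci on M to loci on T (log scale) by reads per locus for two-strand and single-strand 21 nt loci, with 95% intervals of counting error. M is denser in every pair, while from 10 to 29 reads both ratios lie below 1.

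The lean of reads to M depended most on chromosome pair 1. M held 43337 reads and T 30880, a ratio of 1.40. It was 1.27 without the top locus and 1.31 without the 10 top loci. With chromosome pairs left out in turn it ran from 1.05 to 1.54, and the lowest value came without pair 1. On chr1M lay 13570 reads against 2516 on chr1T, and 7 of the 10 leading loci of the M chromosomes were there. They were led by 4243 reads from 20537350 to 20538643, 2052 from 9588431 to 9589014, 1079 from 9674891 to 9676047 and 809 from 18741257 to 18743778. The fifth locus of the M set held 772 reads on chr11M from 10950729 to 10951254. On T the leading loci lay on several chromosomes, with 1864 reads on chr2T from 12636165 to 12637031, 1595 on chr10T from 2517232 to 2517903, 860 on chr11T from 2459152 to 2459626, 836 on chr2T from 7168306 to 7168890 and 743 on chr1T from 11971517 to 11972147. More reads lay on M in 15 of 21 pairs. Single-strand 21 nt, two-strand 22 nt and two-strand 24 nt loci leaned further to M in reads, at 1.92, 1.69 and 5.15. Of the reads in loci outside hairpins, two-strand 21 nt loci held 6.77% on M chromosomes and 7.21% on T chromosomes. The chr11T locus stood alone, since the nearest listed locus was 120883 bp away.

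Loci on M were also shorter, at a median of 416 bp against 421 bp, and 12.3% against 20.0% were over 600 bp. At 10 reads or more both sets were alike, with 45.5% on M and 45.6% on T over 600 bp. The longest locus of the M set had 4063 bp and 502 reads, on chr3M from 13994592 to 13998654. The fullest window of the T set was the first Mb of chr20T, with 14 loci and 277 reads. Its longest runs held 5 loci each, on chr10T from 12292510 to 12302136 with 182 reads and on chr17T from 1272463 to 1281669 with 36 reads. Loci within 10 kb of a hairpin numbered 14 on M (0.709%) and 3 on T (0.204%), near 72 and 65 hairpins. The share of all loci within that distance was not computed for either set.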

How the data were processed

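Small RNA libraries of 4 accessions with 3 biological replicates each (12 in all) were made with the NEXTflex kit and sequenced on a NextSeq 500, per the labels' protocols. Fastp 0.20.1 and deepTools appear in the submitters' processing notes without a role. Per the files themselves, the authors listed loci with ShortStack on the pooled replicates, on assembly asm202106v1 (Sp9509: asm3v1). The deposited count per locus is a whole number of reads, not normalized. Alignment settings, thresholds for a locus and for its strand, and placement of reads that match several places were not stated there or in the labels.

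Numbers, shares with Wilson intervals, ratios with binomial intervals, spans to the last listed locus, 1 Mb windows and distances were computed with Python 3.11.15, pandas 2.3.3, numpy 2.4.6 and matplotlib 3.10.9. On simulated lists the drawn loci and reads were recovered in 4 of 4 accessions. Depth was the number of reads in loci, since total library depth was not used here.

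Loci were named by rule: per accession, and for M and T apart, the 5 with most reads, the longest, the fullest window and the largest run no more than 10 kb apart; others are marked as chosen after their values were seen. Members and lists were chosen with earlier results of these data known. Unplaced scaffolds, organelles and hairpins were left out of the main values. Every sample column was used. The alternatives tried were read minimums, scaled reads, other lengths, distances and windows, and leading loci or chromosome pairs left out.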

Additional observations from a re-analysis of the deposited data

Results flagged for a closer look

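Two-strand 21 nt loci were also listed outside the numbered chromosomes, where they enter none of the values above. Unplaced scaffolds of Lg7742a held 29 such loci on 17 sequences, with 1808 reads in all and at most 963 in 1 locus. Unplaced scaffolds of Lj8627 held 114 on 85 sequences, with 1215 reads in all and at most 190 in 1 locus. Organelle sequences of Sp9509 held 8, with 170 reads in all and at most 67 in 1 locus. They stand out only as a signal in sequence that the comparisons did not use, above the limit of 3 that a count of 0 allows.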

How the results depend on the processing

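No paired analysis was possible because the lists pool all replicates of an accession, and leaving out a replicate was not run for the same reason. Of 134 alternatives, all chosen with earlier results of these data known, 54 left a value within its limit and 78 moved it. The other 2 put an M to T ratio below 1 instead of above it, and for the ratio per Mb the interval held 1. Variance over mean per window kept within its limit under all 12 of its alternatives, but the limit was not the same for every measure. For counts it was a change of up to 1.5 times. In Sp9509 variance over mean went from 2.12 to 2.96 with 2 Mb windows and still counted as within its limit. In Lg7742a the share of reads in the top 10 loci went from 46.3% to 48.4% at 10 reads and counted as moved. These numbers therefore do not rank the measures by stability. A read minimum acts through the loci it drops, and no further cause was tested. Depth limits most the loci of both Lemna accessions, whose median was 7 reads in lists that start at 3.

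In Lj8627 the M to T ratio of loci was 1.25 at 5 reads, 0.808 at 10 reads, which is a reversal, and 1.82 at 100 reads. Per Mb it was 0.995 (0.885 to 1.12) at 10 reads, an interval that holds 1, and 2.24 at 100 reads. The M to T ratio of reads was 1.27 without the top locus, 1.31 without the top 10, 1.05 without chromosome pair 1 and 1.54 without pair 10.

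Numbers are given for Lg7742a, Lj8627, Sp9509 and Wa8730 in this order. At 100 reads there were 113, 93, 139 and 113 loci, and 60 on M and 33 on T. At 10 reads there were 614 in Lg7742a, 1121 in Lj8627, 501 on M and 620 on T, and at 10 scaled reads 614, 999, 430 and 569. Per Mb these were 1.27, 1.49, 1.49 and 1.49, and scaled 1.27, 1.33, 1.28 and 1.37. Chosen after seeing the data was the share of 21 nt reads without the top locus, at 22.7%, 16.1%, 28.7% and 33.2%. Two-strand shares in Lg7742a, Lj8627 and Sp9509 were 46.9%, 55.6% and 72.1% at 10 reads, and 36.7%, 34.4% and 60.2% at 100.

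The share of reads in the top 10 loci became 52.7%, 36.5%, 78.2% and 22.5% for the top 1% of loci, and 41.3%, 16.3%, 45.8% and 22.8% without the top locus. At 10 reads it was 48.4%, 24.2% and 26.2% in Lg7742a, Lj8627 and Wa8730. Median reads there were 25, 17 and 31 at 10 reads, and 285, 226, 313 and 171 in the 4 accessions at 100. Loci over 600 bp made up 47.7%, 45.6% and 21.6% in the same 3 at 10 reads, and 69.9%, 76.3%, 89.2% and 39.8% in the 4 at 100. Loci over 1000 bp made up 5.54%, 3.40%, 15% and 3.67%. Another locus lay within 2 kb of 12.1%, 11.7%, 34.2% and 21.4%, and within 50 kb of 37.9%, 48.6%, 65.5% and 40%. At 10 reads 23.9% in Lg7742a and 18.0% in Lj8627 had one within 10 kb.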

Other observations

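Some deep two-strand 21 nt loci lay beside a deep locus of another class. These were seen after the values were known. The tenth locus of Lj8627, on chr15M with 770 reads, lay 456 bp from a single-strand 21 nt locus of 6398 reads. The leading locus of the T chromosomes, on chr2T with 1864 reads, lay 1731 bp from a two-strand 22 nt locus of 1559 reads. The seventh locus of Sp9509, on chr12 with 4362 reads, lay 87 bp from a single-strand 21 nt locus of 2138 reads. Whether each pair is a single source was not tested.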
